A study of Mus musculus with 16 samples.

Results

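The genes that make diphthamide, together with the gene for the protein that carries it, were followed across 16 mouse lung tumors, 9 Max null and 7 Max wild-type. The set comprised 7 of the 23284 symbols counted in every tumor. Dph1, Dph2, Dph3, Dph5 and Dnajc24 act in diphthamide synthesis, Eef2 encodes the acceptor protein, and Ovca2 was included because it shares exons with Dph1. All 7 symbols were found by name, and all 7 passed the filter on low counts in both genotypes together. The members were chosen by pathway and by the measured difference in CPM (read counts scaled to a common library size) between Max null and Max wild-type tumors, in which Dph1 was among the genes of smallest p. For these 7 genes that difference is therefore given as a description without a p-value.

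The Max null group carried the genotype label Max -/-, and the Max wild-type group was the RP model with Max intact. The letters RP, which the labels leave unexplained, commonly stand for conditional deletion of Rb1 and Trp53, used to model small cell lung cancer in mice. Both groups were of mixed 129/SvJ; C57BL/6 strain, and in both the deletions were made with adenovirus carrying Cre recombinase under the CMV promoter, given through the trachea. That promoter is active in many cell types, so the cell that first recombined is not fixed by the construct. The ages of the mice, and whether each tumor came from a separate mouse, were not given in the sources used here, so the p-values measure only the spread between these samples.

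Diphthamide is a modified histidine found in a single protein of eukaryotic cells, elongation factor eEF2, which moves the ribosome along the mRNA. DPH1 and DPH2 form an iron-sulfur enzyme that makes the first intermediate with electrons passed on by DPH3 and help from the J-domain protein DNAJC24, DPH5 then methylates it, and DPH7 and DPH6 complete it. The residue is the target of diphtheria toxin and of Pseudomonas exotoxin A, and cells without it are resistant to both. MAX is the partner through which MYC family proteins, and their antagonists such as MNT, bind the E-box CACGTG.

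The codon of the modified histidine is shown first because it is the site on which the whole pathway acts. In the coding sequence of mouse Eef2 (transcript Eef2-201 of GENCODE M21, capitals marking the histidine codon) it reads as follows.
Eef2 coding stretch: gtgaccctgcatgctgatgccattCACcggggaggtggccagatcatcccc

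Promoter windows of Dph1, Ovca2, Eef2 and Dph3 are shown. Dph1 was the gene of the set that differed most between genotypes, and Ovca2 is the gene that shares its exons. The window of Eef2 and 1 window of Dph3 also held the sequence that MAX dimers bind. Another window of Dph3, for a different start at chr14:32085643-32085942, did not hold it and is not shown. Windows were matched for 6 of the 7 members, all but Dph2. All are from RefSeq, build GRCm38.p6, and run 5′ to 3′ on the strand of the gene from 250 bases before to 50 bases after the start, with CACGTG in capitals. The Dph1 window lies at chr11:75190434-75190733 on the minus strand, that of Ovca2 at chr11:75178759-75179058 on the minus strand, that of Eef2 at chr10:81176381-81176680 on the plus strand and that of Dph3 at chr14:32085237-32085536 on the minus strand.
Dph1: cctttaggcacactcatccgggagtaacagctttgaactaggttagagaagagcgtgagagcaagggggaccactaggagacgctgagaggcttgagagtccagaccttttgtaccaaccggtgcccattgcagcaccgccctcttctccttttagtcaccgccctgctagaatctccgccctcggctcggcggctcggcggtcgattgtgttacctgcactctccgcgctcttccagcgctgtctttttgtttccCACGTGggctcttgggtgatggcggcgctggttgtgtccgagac
Ovca2: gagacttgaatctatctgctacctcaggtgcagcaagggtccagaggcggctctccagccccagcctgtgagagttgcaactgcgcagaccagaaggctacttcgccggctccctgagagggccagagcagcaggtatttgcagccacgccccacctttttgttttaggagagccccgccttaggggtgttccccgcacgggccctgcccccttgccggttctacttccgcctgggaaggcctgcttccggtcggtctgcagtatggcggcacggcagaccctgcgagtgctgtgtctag
Eef2: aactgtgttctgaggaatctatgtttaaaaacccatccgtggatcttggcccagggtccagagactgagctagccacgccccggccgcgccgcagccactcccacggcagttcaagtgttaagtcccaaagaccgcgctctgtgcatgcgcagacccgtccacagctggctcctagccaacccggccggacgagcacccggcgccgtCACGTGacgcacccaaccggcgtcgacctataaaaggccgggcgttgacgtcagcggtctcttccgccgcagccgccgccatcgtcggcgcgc
Dph3: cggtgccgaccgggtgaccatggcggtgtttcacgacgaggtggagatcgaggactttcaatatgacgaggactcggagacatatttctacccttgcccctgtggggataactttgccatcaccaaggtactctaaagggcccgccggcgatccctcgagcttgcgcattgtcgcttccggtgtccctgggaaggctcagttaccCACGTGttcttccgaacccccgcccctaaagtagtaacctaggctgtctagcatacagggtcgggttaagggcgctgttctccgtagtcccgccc

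CACGTG, which reads the same on both strands, began 6 bases after the Dph1 start and 43 bases before the Eef2 start. In the Dph3 window shown it began 45 bases before the start of that window's transcript. It was absent from the windows of Ovca2, Dph5, Dnajc24, Dph6 and Dph7 and from a further window of Dph3. Among all 32851 promoter windows of the same length, 7.15% held it. GGCGGGAA, a motif bound by E2F factors, was searched on both strands, can share at most 1 base with CACGTG, and was in none of the windows of those 6 members, against 2.19% of all windows. These matches describe letters in the windows and say nothing about binding.

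Libraries held 8.66 to 15.1 M reads in genes in Max null tumors and 9.15 to 13.2 M in Max wild-type tumors. Reads aligned at more than 1 place made up 9.17 to 11.8% of all totals listed per library in Max null tumors and 12.3 to 22.2% in Max wild-type tumors. The groups did not overlap in that share, and Max wild-type tumors 7, 4 and 2 stood highest, the first of them at 22.2% and the next at 20.8%. Its part in the differences below was not tested, and values without these 3 tumors are given where they change a result. Max itself averaged 74.4 ± 5.98 CPM in Max null tumors and 65.8 ± 7.97 CPM in Max wild-type tumors (log2 difference 0.18 ± 0.11, edgeR adjusted p = 0.281). Max reads were counted over the entire gene, so they can include exons outside a deletion and cells that did not recombine, and they do not check the genotype labels. Summed neuroendocrine markers ran from 3191 to 6368 CPM in Max null tumors and from 3537 to 26217 CPM in Max wild-type tumors, and none of the 7 tested markers was called by edgeR's quasi-likelihood test. At an unadjusted p under 0.05 there were 3, and DESeq2 called 1 higher and 1 lower. Of the other markers edgeR called only Cd68, of leukocytes, and it was lower, beside 7.40% of all genes called higher and 8.64% lower. Without Max wild-type tumors 2, 4 and 7 no leukocyte marker was called. At an unadjusted p under 0.05 there were 0 alveolar type 2, 1 endothelial, 1 fibroblast and 2 leukocyte markers. DESeq2 called 1 fibroblast marker higher and 1 leukocyte marker lower. The median log2 difference was 0.47 for alveolar type 2, -0.10 for endothelial, 0.63 for fibroblast and -0.83 for leukocyte markers. Summed alveolar type 2 markers ran from 438 to 2542 CPM in Max null tumors and from 39.9 to 1917 CPM in Max wild-type tumors, and summed leukocyte markers from 55.4 to 137 CPM in Max null tumors and from 57.1 to 260.0 CPM in Max wild-type tumors. Summed endothelial markers ran from 65.5 to 125 CPM in Max null tumors and from 37.0 to 121 CPM in Max wild-type tumors, and summed fibroblast markers from 274 to 1225 CPM in Max null tumors and from 149 to 669.9 CPM in Max wild-type tumors. The part of cell makeup in the differences below was not tested. No marker of neuroendocrine, alveolar type 2, endothelial, fibroblast or leukocyte cells was at 0 in all tumors.

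Dph1, which encodes the first subunit of the initiating enzyme, differed most. Its level was lowest at 13.5 CPM, median 20.0 CPM and highest at 25.6 CPM in Max null tumors. Among Max wild-type tumors the lowest was 0.902 CPM, the median 4.18 CPM and the highest 6.97 CPM. Every Max null tumor was above every Max wild-type tumor, and Max wild-type tumor 6 was by far the lowest of its group. The mean was 19.6 ± 3.69 CPM in Max null tumors (SD, n = 9) and 4.29 ± 1.95 CPM in Max wild-type tumors (SD, n = 7), a fitted log2 difference of 2.19 ± 0.31 (SE, Max null minus Max wild-type). These levels came from 116 to 385 reads in Max null tumors and from 11 to 91 reads in Max wild-type tumors. In RNA of whole tumors, fewer cells of a type that expresses a gene and less of its RNA per cell cannot be told apart.

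Dph1 was the single member of the 7 called by edgeR's quasi-likelihood test over 14825 genes (Benjamini-Hochberg adjusted p at most 0.05). Over all genes, 7.40% were called higher in Max null tumors and 8.64% lower. Groups that did not overlap made up 1.56% of all genes, 0.917% with every Max null tumor above every Max wild-type tumor. Because this comparison helped to choose the members, nothing is read from their count. DESeq2 also called 1 member, and 2 had an unadjusted p under 0.05 by edgeR. The median log2 difference was 0.13 over the members, against -0.03 over all genes tested.

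The log2 difference of Dph1 ran from 2.01 to 2.35 when any 1 tumor was left out, and without Max wild-type tumors 2, 4 and 7 it was 2.18 ± 0.41. With the share of multiply aligned reads as covariate it was 2.21 ± 0.46 and was not called. That fit, in which the covariate itself did not overlap between genotypes, called 10 of the 14825 genes. The size of the Dph1 difference moved little between these fits while its error grew.

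**Figure D1:**
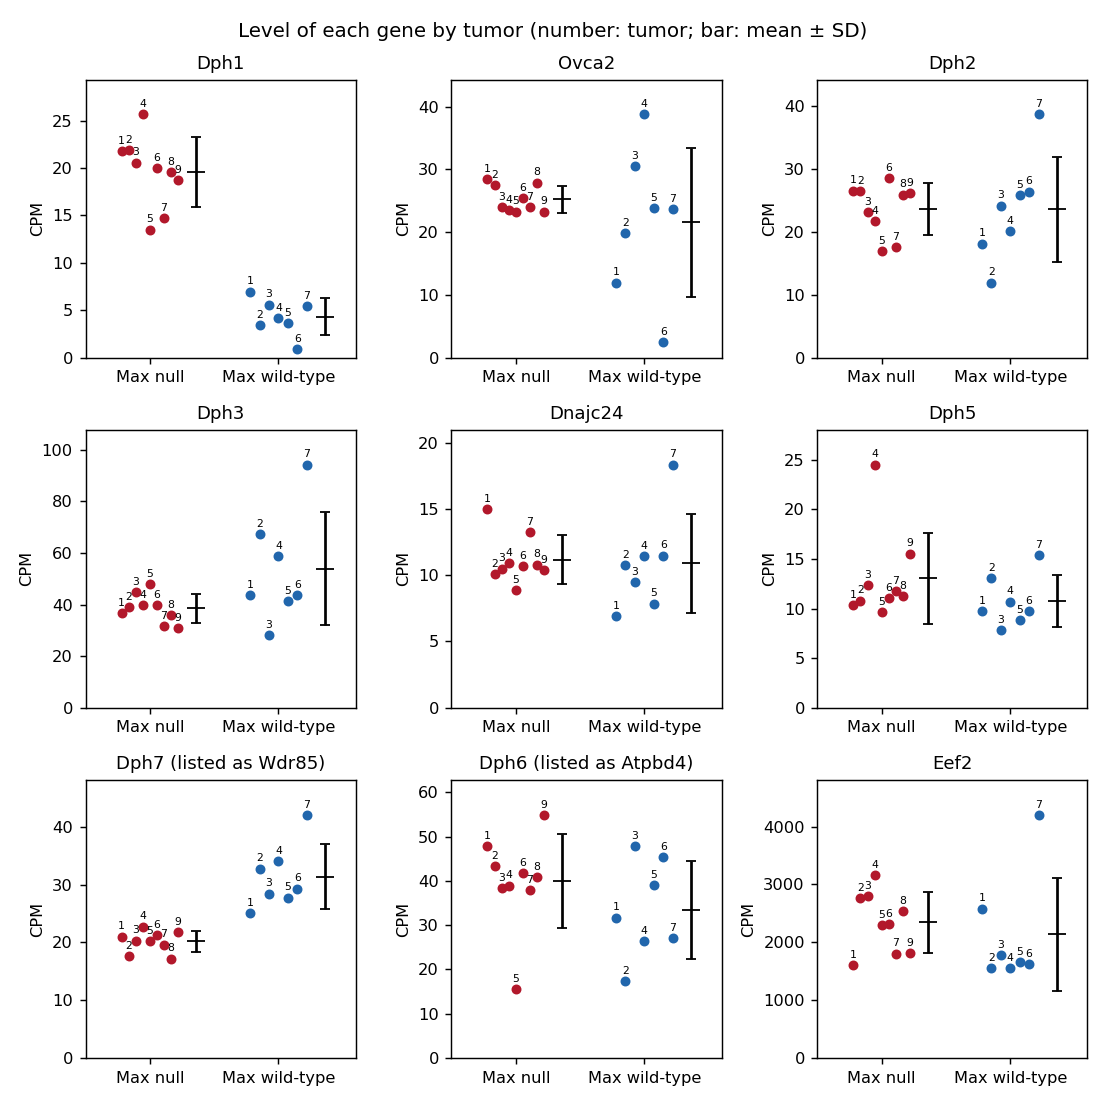
Level of the 7 members, Dph6 and Dph7 in each tumor in CPM (linear axes from 0, points numbered by tumor, Max null left of Max wild-type, bars for the mean ± SD). For Dph1 the Max null tumors lie between 13.5 and 25.6 CPM, all above the Max wild-type tumors at 0.902 to 6.97 CPM, and for Dph7 all Max null tumors lie below the Max wild-type tumors.

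Ovca2, which encodes a serine hydrolase and takes part in no step of diphthamide synthesis, shares 745 of the 2139 exon bases of Dph1 in GENCODE M21. How the submitters' counting divided reads in those bases is not given in the sources used here, so the levels of both genes are uncertain. Ovca2 was lowest at 23.3 CPM, median 24.0 CPM and highest at 28.4 CPM in Max null tumors. Max wild-type tumors had 2.46 CPM at the lowest, 23.7 CPM at the median and 38.8 CPM at the highest. The Max null tumors were close together, and the Max wild-type tumors spread on both sides of them, with tumors 6 and 1 lowest and tumor 4 highest. The fitted log2 difference was 0.23 ± 0.34 and was not called, and it was 0.03 without Max wild-type tumor 6.

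Read as a share within the shared locus, Dph1 took 36.7% of the reads of both genes at the lowest, 44.0% at the median and 52.2% at the highest in Max null tumors. The share in Max wild-type tumors was 9.73% at the lowest, 15.5% at the median and 36.8% at the highest. The groups met at a single point, since Max wild-type tumor 1 at 36.8% (95% Wilson interval 31.1 to 43.0%) was just above Max null tumor 5. Max wild-type tumor 6, with 11 Dph1 and 30 Ovca2 reads, had a share of 26.8% with an interval of 15.7 to 41.9%. These intervals cover counting error only. When the counts of both genes were summed into 1 feature, the log2 difference was 0.79 ± 0.31 and was not called.

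**Figure D2:**
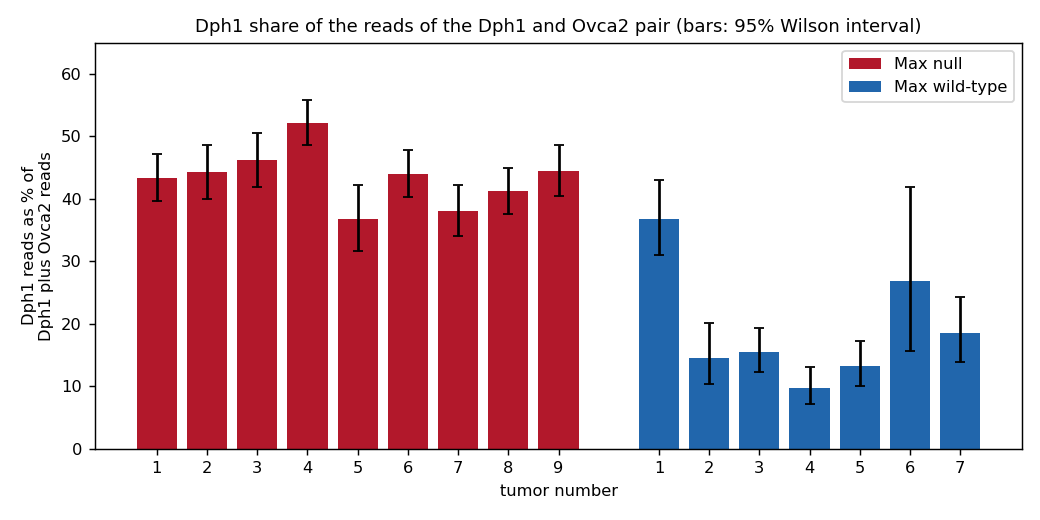
Dph1 reads as a percent of Dph1 plus Ovca2 reads in each tumor, Max null left of Max wild-type, with 95% Wilson intervals. Max null tumors lie between 36.7% and 52.2%, and Max wild-type tumors between 9.73% and 36.8%, with Max wild-type tumor 1 inside the Max null range.

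Dph2, the partner subunit of DPH1 in the same enzyme, had a level of 17.0 CPM at the lowest, 25.9 CPM at the median and 28.6 CPM at the highest in Max null tumors. Its Max wild-type levels were 11.9 CPM at the lowest, 24.2 CPM at the median and 38.7 CPM at the highest. The Max null tumors lay wholly inside the range of the Max wild-type tumors, and the fitted log2 difference was 0.01 ± 0.21. Set per kilobase of exon, with the shared bases of Dph1 left out, the ratio of Dph1 to Dph2 was 1.53 ± 0.261 in Max null tumors (lowest 1.28, highest 2.16) and 0.372 ± 0.207 in Max wild-type tumors (lowest 0.0626, highest 0.704). On these bases Dph1 was above Dph2 in every Max null tumor and below it in every Max wild-type tumor. With all exon bases of Dph1, a length tried after the values were seen, the ratio was 0.996 ± 0.170 in Max null tumors and 0.242 ± 0.135 in Max wild-type tumors. Dph1 was then below Dph2 in 7 of 9 Max null tumors, so its order with Dph2 in that group depends on how shared bases were counted. The groups did not overlap. The change of length rescales every tumor by the same factor, so it cannot alter that.

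Dph3, the electron donor of the initiating enzyme and also a part of the Elongator pathway, was lowest at 30.9 CPM, median 39.2 CPM and highest at 48.1 CPM in Max null tumors. Max wild-type levels were 28.3 CPM at the lowest, 43.8 CPM at the median and 94.3 CPM at the highest. The groups overlapped, and the 3 highest values were those of Max wild-type tumors 7, 2 and 4. The fitted log2 difference was -0.48 ± 0.20 and was not called, but it was called at -0.59 without Max wild-type tumor 3. Without Max wild-type tumors 2, 4 and 7 it was -0.03. In GENCODE M21, 317 of its 3076 exon bases overlap Oxnad1 on the opposite strand, and the strand setting of the counting is not given in the sources used here.

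Dnajc24, the J-domain helper, was lowest at 8.85 CPM, median 10.7 CPM and highest at 15.0 CPM in Max null tumors. The Max wild-type range was 6.89 to 18.3 CPM with a median of 10.8 CPM, and its highest value was that of tumor 7. The groups overlapped over nearly their whole range, and the fitted log2 difference was 0.04 ± 0.22. Dph5, the methyltransferase of the next step, was lowest at 9.66 CPM, median 11.3 CPM and highest at 24.5 CPM in Max null tumors. Across Max wild-type tumors Dph5 ran from 7.83 to 15.4 CPM with a median of 9.76 CPM. Max null tumor 4 stood alone above the rest, the groups otherwise overlapped, and the fitted log2 difference was 0.28 ± 0.23. Neither gene was called. In GENCODE M21, 294 of the 3246 exon bases of Dph5 overlap A930005H10Rik on the opposite strand.

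Eef2, the acceptor, was lowest at 1602 CPM, median 2320 CPM and highest at 3161 CPM in Max null tumors. Its lowest Max wild-type level was 1554 CPM, the median 1662 CPM and the highest 4205 CPM. Max wild-type tumors 2 and 4 lay just below the Max null range, and tumors 3, 5 and 6 lay at its low end. Tumor 1 lay higher within that range, and tumor 7 lay above all others. The mean was 2343 ± 526 CPM in Max null tumors and 2136 ± 981 CPM in Max wild-type tumors, and the fitted log2 difference was 0.13 ± 0.24 and was not called. Without Max wild-type tumors 2, 4 and 7 it was 0.29, and with the share of multiply aligned reads as covariate 0.51. These levels came from 13316 to 47473 reads per tumor, so counting error is small beside the spread between tumors.

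**Figure D3:**
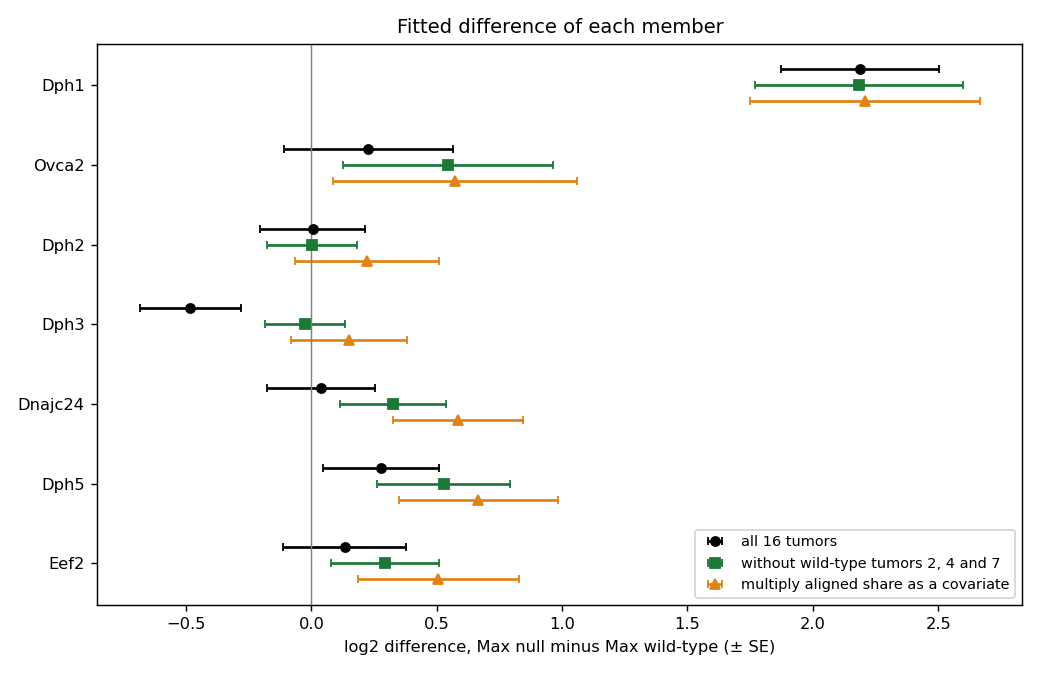
Fitted log2 difference (Max null minus Max wild-type) ± SE of the 7 members in all 16 tumors, without Max wild-type tumors 2, 4 and 7, and with the share of multiply aligned reads as covariate. Dph1 lies between 2.18 and 2.21 in all 3 fits, while Dph3 is -0.48 in all tumors, -0.03 without those tumors and 0.15 with the covariate.

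**Figure D4:**
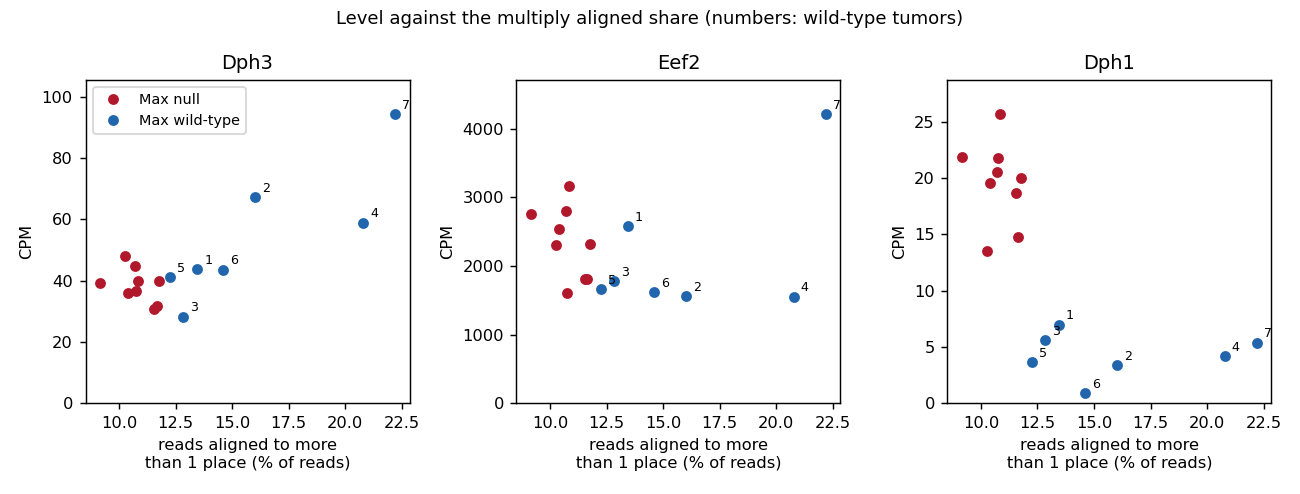
Level of Dph3, Eef2 and Dph1 in CPM against the percent of reads aligned at more than 1 place, 1 point per tumor, Max null listed before Max wild-type. The Max null tumors lie between 9.17% and 11.8% and the Max wild-type tumors between 12.3% and 22.2%, and the highest Dph3 and Eef2 levels belong to Max wild-type tumor 7 at 22.2%.

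On the scale of CPM per kilobase of exon, which allows levels of different genes to be compared, Eef2 stood far above the enzymes at 758 ± 170 in Max null tumors and 691 ± 318 in Max wild-type tumors. In Max null tumors the enzymes followed in the order Dph6 at 14.4 ± 3.84, Dph1 on unshared bases at 14.1 ± 2.65, Dph3 at 12.5 ± 1.82, Dph7 at 12.1 ± 1.10, Dnajc24 at 9.33 ± 1.54, Dph2 at 9.28 ± 1.62 and Dph5 at 4.01 ± 1.42. Neighbours from Dph6 to Dph7 lay within 1 SD of each other, as did Dnajc24 and Dph2. In Max wild-type tumors the order was Dph7 at 18.8 ± 3.37, Dph3 at 17.5 ± 7.10, Dph6 at 12.1 ± 3.98, Dph2 at 9.25 ± 3.27, Dnajc24 at 9.10 ± 3.11, Dph5 at 3.32 ± 0.806 and Dph1 at 3.08 ± 1.40. On unshared bases Dph1 was near the top of the enzymes in Max null tumors and at the bottom in Max wild-type tumors, within 1 SD of Dph5. Ovca2 on unshared bases had 13.1 ± 1.10 in Max null tumors and 11.2 ± 6.17 in Max wild-type tumors. If reads in the shared bases had been counted to Dph1, its level would be 9.16 ± 1.73 in Max null tumors and 2.01 ± 0.911 in Max wild-type tumors. It would then stand just below Dph2 and Dnajc24 in Max null tumors, within 1 SD of both, and above only Dph5. In Max wild-type tumors it was already lowest, and a longer length can only lower it.

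Both enzymes of the last steps were examined beside the members. Dph7, which removes the methyl ester and is listed under the older symbol Wdr85, was lowest at 17.2 CPM, median 20.3 CPM and highest at 22.7 CPM in Max null tumors. Max wild-type levels ran from 25.1 to 42.1 CPM with a median of 29.3 CPM. Every Max null tumor was below every Max wild-type tumor, which held for 0.648% of all genes tested. Dph7 fell with a log2 difference of -0.63 ± 0.14 (edgeR adjusted p = 0.00945, lower in 9 of 9 Max null tumors), and it stayed called when any 1 tumor was left out, between -0.67 and -0.56. Without Max wild-type tumors 2, 4 and 7 it was -0.45 and was not called, in a fit with fewer tumors that called far fewer genes. With the share of multiply aligned reads as covariate it was -0.31 and was not called.

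Dph6, the amide ligase of the final step, listed as Atpbd4, was lowest at 15.5 CPM, median 41.0 CPM and highest at 55.0 CPM in Max null tumors. The Max wild-type range was 17.3 to 47.9 CPM, with a median of 31.7 CPM. The groups overlapped and the log2 difference was 0.25 ± 0.24 (edgeR adjusted p = 0.483). Among the synthesis genes and Eef2, the groups were apart for Dph1 at the opening step and for Dph7 at a late step, in opposite directions, and they overlapped for the others.

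The relation of Dph1 to other members was examined among tumors of the same genotype, which the choice of members did not use, with 8 relations and exact permutation p-values. Dph1 and Dph2 had a Pearson r of 0.685 in Max null tumors (n = 9, exact permutation p = 0.0377, adjusted over 8 relations p = 0.302) and a Spearman rho of 0.433 (exact permutation p = 0.250). Without Max null tumors 5 and 7, those farthest from the median of Dph1, the r was -0.64. The positive r therefore rested on those tumors, though leaving them out also narrows the range of Dph1. In Max wild-type tumors Dph1 and Dph2 had r = -0.0532 (n = 7, exact permutation p = 0.875) and rho = -0.143 (exact permutation p = 0.783), and without tumors 1 and 6 r was 0.704.

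Dph1 and Ovca2 had r = 0.362 in Max null tumors (n = 9, exact permutation p = 0.333) with rho = 0.400 (exact permutation p = 0.291), and without tumors 5 and 7 r was -0.0725. In Max wild-type tumors they had r = 0.776 (n = 7, exact permutation p = 0.111) with rho = 0.286 (exact permutation p = 0.556), and without tumors 1 and 6 r was 0.365. Both r were lower without those tumors, whose removal also narrows the range of Dph1, and neither relation passed adjustment with them. Dph1 and Eef2 had r = 0.427 in Max null tumors (n = 9, exact permutation p = 0.254) with rho = 0.550 (exact permutation p = 0.133), and 0.488 without tumors 5 and 7. In Max wild-type tumors they had r = 0.463 (n = 7, exact permutation p = 0.241) with rho = 0.643 (exact permutation p = 0.139), and 0.613 without tumors 1 and 6.

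Eef2 and the multiply aligned share had r = -0.460 in Max null tumors (n = 9, exact permutation p = 0.213) with rho = -0.317 (exact permutation p = 0.410), and -0.481 without tumors 2 and 6. In Max wild-type tumors they had r = 0.465 (n = 7, exact permutation p = 0.294) with rho = -0.107 (exact permutation p = 0.840), and -0.324 without tumors 4 and 7. None of the 8 relations passed adjustment.

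Among the genes whose levels followed Dph1 most closely over the 16 tumors, after each group's mean was taken out, were Zc3h12a with r = 0.854, Rtn4rl1 with r = 0.842, Neurl1a with r = 0.808 and Ppp1r3f with r = 0.785, given as a description over tumors that share library depth. Rtn4rl1 starts 2.54 kb from the Dph1 start on the opposite strand. Without Max wild-type tumor 6 r was 0.739 for Zc3h12a, 0.692 for Neurl1a, 0.497 for Ppp1r3f and 0.0182 for Rtn4rl1. The genes most like Eef2 were Atp5b with r = 0.911 and Atp5a1 with r = 0.857, both subunits of the mitochondrial ATP synthase, and Bckdha with r = 0.854, a subunit of the branched-chain keto acid dehydrogenase. Likeness to Eef2 was not computed without Max wild-type tumor 7, whose Eef2 level stood above all others, so its part in these r is unknown.

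Dph1 lies in a gene-dense stretch, and 24 other counted genes start within 500 kb of it in GENCODE M21. Of the 23 that were tested, 5 were called higher in Max null tumors and none lower, beside 7.40% called higher over all genes, and 21 lay above 0 beside 47.6% of all genes. Their median log2 difference was 0.33, against -0.03 for all genes tested. At an unadjusted p under 0.05 there were 9, and DESeq2 called 7 higher. Along the direction of Dph1 transcription, with negative values upstream, the called genes start at -459 kb (Myo1c), -340 kb (Slc43a2), -263 kb (Wdr81), 293 kb (Tsr1) and 360 kb (Mnt) from the Dph1 start, while Rtn4rl1 beside it had a log2 difference of 0.42 ± 0.44 (edgeR adjusted p = 0.537) and Hic1, on the other side of Ovca2, 0.75 ± 0.34 (edgeR adjusted p = 0.125). Hic1 was called without Max wild-type tumor 3, at 1.04, and its adjusted p over all alternatives lay between 0.0344 and 0.890.

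Mnt, which encodes a MAX partner that represses transcription, averaged 105 ± 24.2 CPM in Max null tumors and 36.6 ± 18.1 CPM in Max wild-type tumors, a log2 difference of 1.52 ± 0.24 (edgeR adjusted p = 0.00213). Wdr81, which encodes an endosomal WD-repeat protein, averaged 65.5 ± 9.52 CPM in Max null tumors and 25.5 ± 9.14 CPM in Max wild-type tumors, with 1.36 ± 0.19 (edgeR adjusted p = 0.0016). Tsr1, a ribosome assembly factor, averaged 74.0 ± 13.5 CPM in Max null tumors and 36.4 ± 8.30 CPM in Max wild-type tumors, with 1.02 ± 0.16 (edgeR adjusted p = 0.00215). For these genes and for Myo1c, an unconventional myosin with 0.87 ± 0.16 (edgeR adjusted p = 0.00408), every Max null tumor was above every Max wild-type tumor. Slc43a2, an amino acid transporter, overlapped between groups at 1.15 ± 0.33 (edgeR adjusted p = 0.027) and was not called without Max wild-type tumor 7, at 1.03. Tsr1 shares 1159 of its 3389 exon bases with Srr on the opposite strand, so its count is uncertain.

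Without Max wild-type tumors 2, 4 and 7, 3 of these were called, Wdr81 with 1.10, Tsr1 with 0.90 and Mnt with 1.31. With the share of multiply aligned reads as covariate none of the 23 was called, and 4 of them had an unadjusted p under 0.05.

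Max wild-type tumor 6 was low across the locus, a pattern that was singled out after its values were seen. Its Rtn4rl1 level was 1.39 CPM from 17 reads, against 54.7 to 102 CPM in the other Max wild-type tumors. Its Dph1 level was 0.902 CPM, against 3.39 to 6.97 CPM in the others, and its Ovca2 level was 2.46 CPM, against 11.9 to 38.8 CPM. In that tumor 13 of the 24 neighbours, or 54.2%, were below every other Max wild-type tumor, and 8.92% of all genes tested were. Smg6, an endonuclease of nonsense-mediated decay, had 14.2 CPM in it, against 43.6 to 84.0 CPM in the others. Without this tumor 5 neighbours were called, and the median over the neighbours was 0.24.

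**Figure D5:**
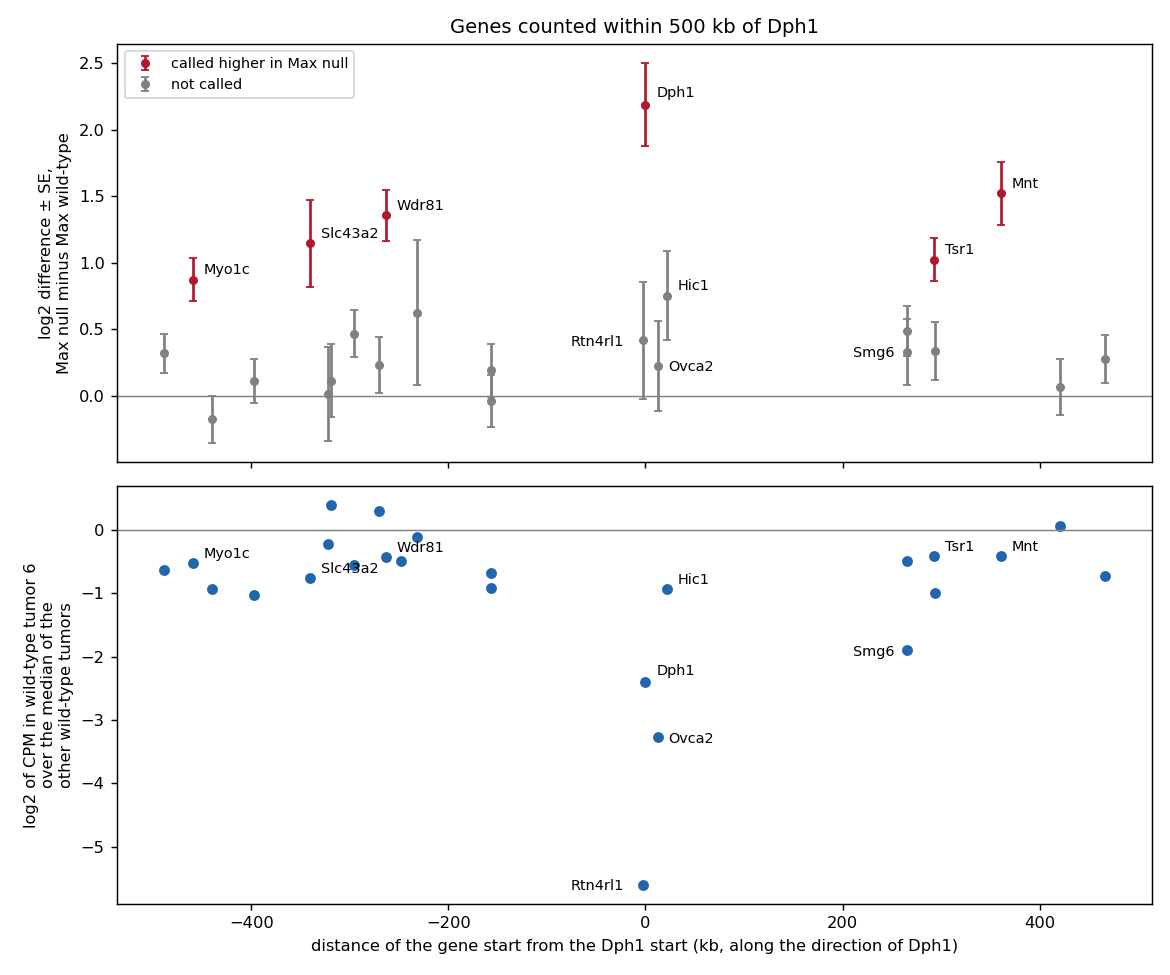
Upper panel, fitted log2 difference (Max null minus Max wild-type) ± SE of each tested gene against the distance of its start from the Dph1 start in kb, negative upstream. Lower panel, log2 of the CPM in Max wild-type tumor 6 over the median of the other Max wild-type tumors, where 21 of 24 neighbours lie below 0.

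The tested genes next to the other members did not pass the threshold of edgeR's test. Next to a member means the nearest start of a counted protein-coding gene on each side, at any distance. Oxnad1, which starts 355 bases from Dph3 on the opposite strand, averaged 13.2 ± 1.64 CPM in Max null tumors and 17.1 ± 5.12 CPM in Max wild-type tumors, a log2 difference of -0.37 ± 0.20 (edgeR adjusted p = 0.203). Beside Dph2, Atp6v0b had a log2 difference of -0.77 ± 0.34 (edgeR adjusted p = 0.119) and Ipo13 one of -0.39 ± 0.23 (edgeR adjusted p = 0.259). Nearest to Dph5, S1pr1, which starts 173 kb away, had 0.90 ± 0.33 (edgeR adjusted p = 0.0706) and Slc30a7, 120 kb away, 0.43 ± 0.19 (edgeR adjusted p = 0.121). Nearest to Dnajc24, Immp1l, which starts 98.9 kb away, had -0.63 ± 0.25 (edgeR adjusted p = 0.0848) and Mpped2, 690 kb away, 1.36 ± 1.10 (edgeR adjusted p = 0.409). Beside Eef2, Pias4 had -0.29 ± 0.16 (edgeR adjusted p = 0.212) and Dapk3 -0.11 ± 0.13 (edgeR adjusted p = 0.593). Msmb, beside Dph3, had no reads in any tumor.

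Translation factors that work with eEF2 were examined next. Of 14 elongation and termination factors, 2 were called higher in Max null tumors and none lower, beside 7.40% higher and 8.64% lower over all genes, with a median log2 difference of 0.02. There were 4 at an unadjusted p under 0.05, and DESeq2 called 2 higher and 2 lower. Gspt2, a release factor subunit, averaged 22.1 ± 4.16 CPM in Max null tumors and 9.40 ± 5.68 CPM in Max wild-type tumors, a log2 difference of 1.23 ± 0.36 (edgeR adjusted p = 0.029). It was not called without Max wild-type tumor 2, at 1.09, or tumor 4, at 1.20. Eif5a2, an isoform of the hypusine-bearing factor eIF5A, had 0.98 ± 0.31 (edgeR adjusted p = 0.0392) and lost its call in 12 of the 16 fits that left out 1 tumor, which ran from 0.85 to 1.29.

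Of 5 genes that modify eEF2, 1 was called lower and none higher, beside the same 8.64% and 7.40% over all genes. Ppp2cb, a catalytic subunit of protein phosphatase 2A, fell with -0.43 ± 0.14 (edgeR adjusted p = 0.0421) and lost its call in 11 of 16 such fits, from -0.47 to -0.34. Eef2k, the kinase that inhibits eEF2, averaged 30.9 ± 19.7 CPM in Max null tumors and 28.6 ± 23.2 CPM in Max wild-type tumors and was not called (0.11 ± 0.45, edgeR adjusted p = 0.893). Eef2kmt, its lysine methyltransferase, listed as Fam86, had -0.05 ± 0.31 (edgeR adjusted p = 0.921), with 472 of its 2170 exon bases overlapping Alg1 on the opposite strand. The median over the 5 genes was -0.16.

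Of 12 Elongator and KTI genes, the pathway that shares DPH3, 2 were called lower, beside 8.64% over all genes, and 10 were not called, with a median of 0.03. Elp6, listed as 2610002I17Rik, fell to 10.3 CPM on average in Max null tumors (lowest 7.46, highest 13.3), against 18.0 CPM in Max wild-type tumors (lowest 12.6, highest 25.3), with -0.80 ± 0.19 (edgeR adjusted p = 0.014). Elp5, listed as Rai12, fell with -0.58 ± 0.18 (edgeR adjusted p = 0.0413) and lost its call in 10 of 16 fits that left out 1 tumor, from -0.65 to -0.47. Of 9 genes for cytosolic iron-sulfur assembly, which supplies the cluster of the DPH1 enzyme, 1 was called lower, beside 8.64% over all genes. It was Nubp2, with -0.63 ± 0.19 (edgeR adjusted p = 0.0309), and 8 were not called, with a median of 0.03 over the list. Nubp2 was not called without Max null tumor 2 or 8, each at -0.60, or without Max wild-type tumor 2, at -0.58, or 7, at -0.50. None of the called genes of these 4 lists was called without Max wild-type tumors 2, 4 and 7. There Elp6 had -0.74, Elp5 -0.38, Nubp2 -0.38, Ppp2cb -0.31, Gspt2 0.77 and Eif5a2 0.72. That fit had fewer tumors and called far fewer genes, so a lost call cannot tell dependence on those tumors from the smaller number of tumors.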

How the data were processed

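RNA of 16 lung tumors was sequenced and the authors deposited a table of read counts per gene symbol for each tumor. Per the submitters' processing notes the mouse build was mm9 and the tools, in no stated order, were HTSeq 0.6.1, TopHat, TopHat2 2.0.12 and bcl2fastq 1.8.4. Neither the annotation nor the strand setting is given in the sources used here. The totals at the end of each table, of reads in no gene (17.9 to 20.3% in Max null tumors, 17.2 to 27.3% in Max wild-type tumors), ambiguous reads and multiply aligned reads, stayed out of the tests. Together they made up 29.2 to 32.9% of reads in Max null tumors and 32.8 to 45.6% in Max wild-type tumors.

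Counts were fitted with edgeR 4.0.16 in R 4.3.3 (filterByExpr, TMM factors, quasi-likelihood F test), which left 14825 genes, with Benjamini-Hochberg adjustment at 0.05. DESeq2 1.42.0 was an alternative. CPM used TMM-scaled library sizes, correlations log2 CPM with a prior count of 2. SE is the fitted difference over the square root of F. Exon lengths and distances are from GENCODE M21 (GRCm38), not the build of the counts.

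The 7 members and the other lists were chosen with earlier results of these data known. Genes named are the members, Max, Dph6, Dph7, up to 4 called genes with the smallest p in each list, every called gene within 500 kb of Dph1, the genes next to each member, and the 5 genes most like Dph1, 1 of which is not reported here, and the 3 most like Eef2. Hic1 and Rtn4rl1 are such neighbours, while Smg6, Eef2k and Eef2kmt were named after their values were seen. No 2 libraries agreed within sampling noise (lowest chi-square per degree of freedom 32.8 over 120 pairs).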

Additional observations from a re-analysis of the deposited data

Results flagged for a closer look

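Single tumors that stood apart from the rest of their group were looked for in 34 groups of values, of which 7 held one; chance gives about 1 in 20. Dph5 was 24.5 CPM in Max null tumor 4, against 9.66 to 15.5 CPM in the other Max null tumors. The ratio of Dph1 to Dph2 per kilobase was 2.16 in the same tumor, against 1.28 to 1.63 in the others, and Slc43a2 was 152 CPM in it, against 20.0 to 86.1 CPM. Dph6 (listed as Atpbd4) was 15.5 CPM in Max null tumor 5, against 37.9 to 55.0 CPM. In Max wild-type tumor 7, Dnajc24 was 18.3 CPM, against 6.89 to 11.5 CPM in the other Max wild-type tumors, and Eef2 was 4205 CPM, against 1554 to 2581 CPM. Mnt was 75.5 CPM in Max wild-type tumor 1, against 23.7 to 40.3 CPM in the others.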

How the results depend on the processing

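Of 14825 genes, 2378 were called. The count was 278 with a replicate block on tumor number in the 14 tumors whose numbers both groups have, 1450 in those tumors with no block (without Max null tumors 8 and 9, chosen after seeing the data), 256 without Max wild-type tumors 2, 4 and 7, and 10 (2019 at an unadjusted p under 0.05) with the share of multiply aligned reads as covariate. It ran from 1471 to 3033 when 1 tumor was left out. Members called were 1, with 1 to 2 when 1 tumor was left out and 0 with the covariate (2 at an unadjusted p under 0.05). Among the other lists 12 were called, 4 under the replicate block, 8 in its 14 tumors with no block, 3 without those 3 tumors, 0 with the covariate (7 at an unadjusted p under 0.05), and 7 to 14 when 1 tumor was left out. Those called under the block were Wdr81, Mnt, Tsr1 and Slc43a2. Dph7 was -0.61 under the block and not called, and -0.62 and called in the same tumors with no block, and Myo1c was 0.78 and not called against 0.77 and called. The labels do not say whether tumor numbers pair the samples. After group means were taken out, 2 of 7 same-numbered pairs correlated over 0.1, and 1 tumor correlated best with its own number. These few correlations cannot exclude a pairing. Dph1 had the same direction in all alternatives, at 2.21 with the covariate and 0.79 summed with Ovca2, neither called. Its groups did not overlap and it was chosen with this difference known, so the unchanged direction gives no support. With the covariate Dph3 was 0.15, Dph5 0.66 and Dnajc24 0.59. The r of Dph1 with Dph2 in Max wild-type tumors was 0.0278 on CPM without a log. The likeness to Dph1 without Max wild-type tumor 6 was an alternative chosen after seeing the data. The cause of these changes was not tested. Depth limits Dph1 in Max wild-type tumors, at 11 to 91 reads.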
